A study of Mus musculus with 9 samples.

Results

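The genes described here are 10 members of the p53 pathway and of the families of cyclin-dependent kinase (CDK) inhibitors: Trp53, Mdm2, Cdkn1a, Cdkn1b, Cdkn2a, Cdkn2b, Cdkn2c, Ccng1, Bax and Fas. They were picked by symbol from the 25965 rows of the authors' expression table, and each symbol matched 1 row. All 10 passed the filter on low values (3 or more libraries with a log2 level of 0 or above), which 14044 rows passed. RNA was sequenced from 9 cultures of C57BL/6 neural stem cells, all started from E14.5 embryos whose Smchd1 alleles were both floxed, that is, flanked by sites at which Cre recombinase deletes DNA. The 4 del/del cultures (female lines 1, 2 and 3 and male line 5) had been transduced with the retrovirus MSCV-Cre-puro, kept in puromycin from 24 h on and harvested on day 7. The 5 fl/fl cultures (female lines 1, 2 and 3 and male lines 5 and 7) were the parts of the lines left untransduced, so both cultures of a line share their source, and male fl/fl 7 has no partner. Loss of the chromatin protein Smchd1, retrovirus and puromycin came together in the del/del cultures, and their parts in any difference cannot be told apart.

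p53, the product of Trp53, is a transcription factor whose protein is held low by Mdm2, a ubiquitin ligase that p53 itself induces, and which accumulates after DNA damage and other stress. Its classical targets include Ccng1, the cell cycle inhibitor gene Cdkn1a and the cell death genes Bax and Fas. The CDK inhibitors fall into the Cip/Kip family, which includes Cdkn1a (p21) and Cdkn1b (p27) and binds several cyclin-CDK complexes, and the INK4 family, which includes Cdkn2a (p16Ink4a), Cdkn2b (p15) and Cdkn2c (p18) and blocks the kinases Cdk4 and Cdk6. In neural stem cells p53, p21 and the products of Cdkn2a are known for limiting self-renewal.

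Levels are log2 RPM, the log2 of reads per M reads (M is 1000000), as the authors gave them, and a difference of 1 on this scale is a 2-fold change. The deleted gene, Smchd1, lay at 5.04 to 5.36 in del/del and 6.16 to 6.81 in fl/fl libraries (difference -1.19, limma adjusted p = 0.00751). Neural stem cell markers were present, with all 12 of the list kept. Female fl/fl 2 stood apart from the other libraries. It held 12.9 M reads in genes, against 32.9 M to 44.9 M in the others, and 53.3% of its reads fell in genes against 34.8% to 44.4%. Its excess over the mean of the other 4 fl/fl libraries had a median of 0.28 over all kept genes, and rows of ribosomal protein pseudogenes reached 481.3 RPM against 60.3 to 181.0. Values without female fl/fl 2 are therefore given beside those with all 9 libraries for the results that turn on it.

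None of the 10 genes passed the test between del/del and fl/fl over both sexes (limma, adjusted p under 0.05), where 1.55% of all kept genes passed, 203 rising (1.45%) and 14 falling (0.0997%). Fas, the death receptor gene, had the largest estimate, 0.60 on the log2 scale, and was alone among the 10 in being higher in all 4 del/del than in all 5 fl/fl libraries. The other 9 had estimates between -0.13 (Cdkn1b) and 0.16 (Cdkn2b). At an unadjusted p under 0.05 there was 1 of the 10, against 9.84% of all kept genes, and limma's voom on recovered reads also called 0 of the 10 (1.85% of all kept genes), with 2 at an unadjusted p under 0.05 (13%). The median estimate of the 10 was -0.02, that of all kept genes 0.00. Among the other members the 95% intervals were narrowest for Trp53 (-0.23 to 0.31) and widest for Ccng1 (-0.65 to 0.60), so anything from a 1.57-fold fall to a 1.51-fold rise of Ccng1 lies within what these libraries allow.

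**Figure D1:**
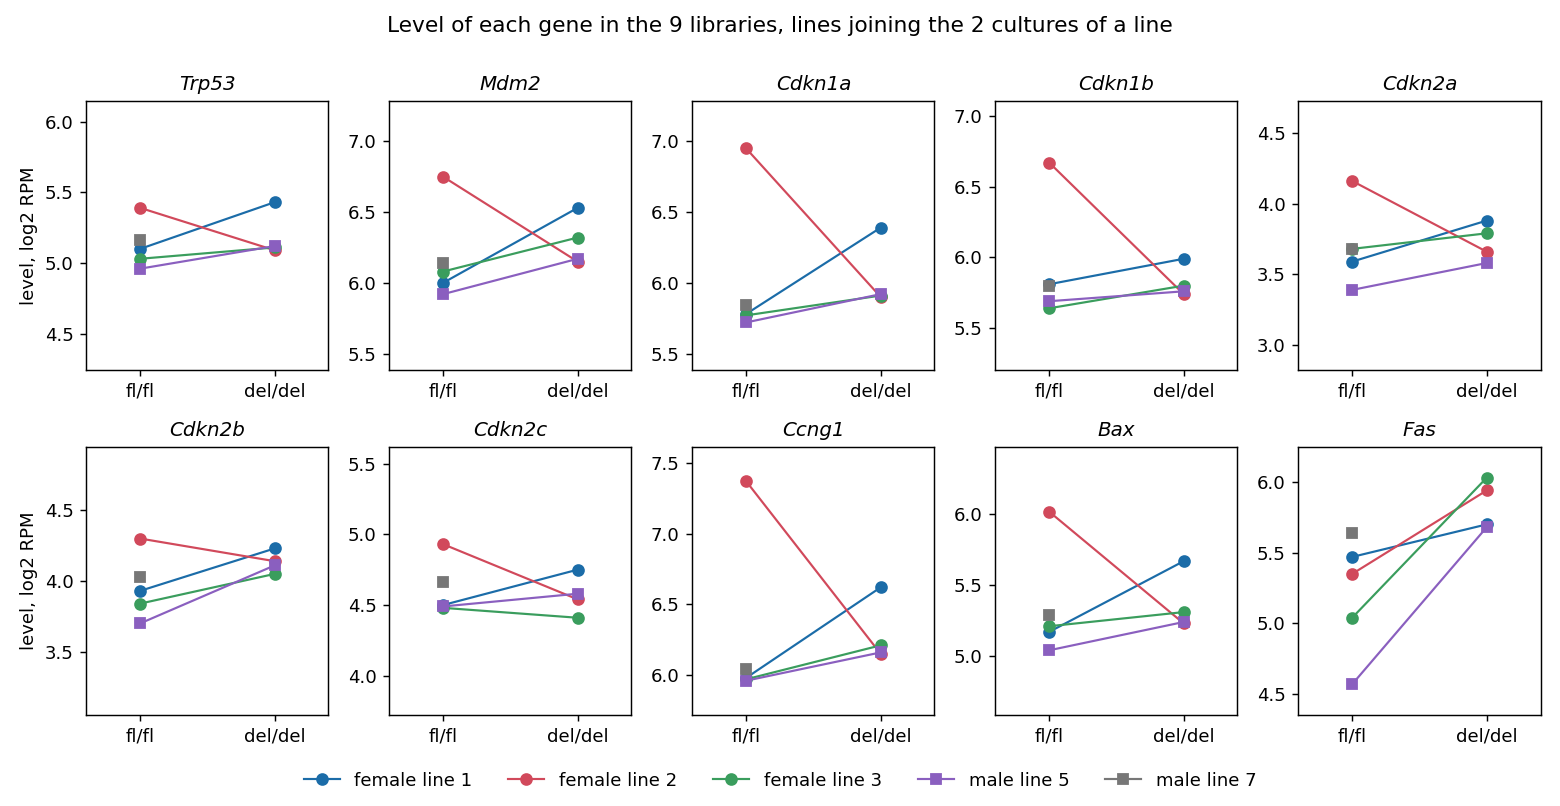
Level of each of the 10 genes (vertical axis, log2 RPM) in fl/fl and del/del libraries, circles for female and squares for male lines, with the cultures of 1 line joined. Every panel spans the same range around its own centre. Female fl/fl 2 is the highest fl/fl library in every panel except that of Fas, and only in Fas do all 4 joined lines rise.

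Fas (chromosome 19, 34290659 to 34327770, mm10, protein-coding, plus strand) encodes the receptor through which Fas ligand starts caspase-dependent death. Its level was 5.70, 5.94 and 6.03 in female del/del 1, 2 and 3 and 5.68 in male del/del 5. It was 5.47, 5.35 and 5.04 in female fl/fl 1, 2 and 3, 4.57 in male fl/fl 5 and 5.64 in male fl/fl 7. The groups did not overlap, but the gap between the lowest del/del library and male fl/fl 7 was small, and the fl/fl libraries were spread more widely (SD 0.422, n = 5) than the del/del libraries (SD 0.175, n = 4). Of all kept genes 5.53% had every del/del library above every fl/fl library. The estimate was 0.60, or 1.51-fold (SE 0.204, 95% interval 0.14 to 1.05, limma adjusted p = 0.277). Over the alternatives the limma adjusted p ran from 0.00206 to 0.749. It was below 0.05 in 2 of 20, both of them fits without line 2 that were chosen after the values had been seen. The lowest among the others was 0.0567. Counted from each library's median kept gene, the groups overlapped, since Fas stood at 1.32 in female del/del 1 and at 1.38 in male fl/fl 7.

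Within lines Fas was higher in del/del than in its untransduced partner in 4 of 4 lines. The differences were 0.24 in line 1, 0.59 in line 2, 0.99 in line 3 and 1.12 in male line 5, where 69% to 81.3% of all kept genes were above 0 in lines 1, 3 and 5 and 32% in line 2. With the line as a block the estimate was 0.73 (SE 0.172), still short of the threshold (limma adjusted p = 0.0567), and 0 of the 10 genes passed there against 3.99% of all kept genes. The sample descriptions of 6 libraries in the labels begin with the prefix RNA-, whose meaning is not given in the sources used here, and those of female line 1 and male fl/fl 7 do not. Fas moved with this split in the fl/fl group: the 2 fl/fl libraries without the prefix had 5.47 and 5.64, the 3 with it 4.57 to 5.35. In the 6 libraries with the prefix the difference was 0.90 (limma adjusted p = 0.0597), and in line 1, the only pair without it, 0.24. The part of this split in the difference was not tested further. Without female fl/fl 2 the estimate was 0.62 (limma adjusted p = 0.242), close to the value with it.

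The 5 kept genes whose levels followed Fas most closely over the 9 libraries were 2310022B05Rik (Pearson r 0.977), Fam100a (0.976), Aff1 (0.964), Cyld (0.964) and Lrrc28 (0.963). These are descriptions over 9 libraries that share their depth and scaling. Aff1 encodes a scaffold of the transcription elongation machinery and Cyld a deubiquitinase of NF-kappaB signalling. Their differences between del/del and fl/fl, 0.18 to 0.26, were smaller than that of Fas and none passed (limma adjusted p from 0.506 to 0.661). Within the Fas pathway the initiator caspase gene Casp8 had an estimate as large as that of Fas. Its level was 3.01 to 3.25 in del/del and 2.14 to 2.82 in fl/fl libraries, with no overlap (0.60, SE 0.142, limma adjusted p = 0.0837, and 0.0302 with the line as a block). For Casp8 female fl/fl 2 was the lowest fl/fl library, and without it the estimate was 0.48 (limma adjusted p = 0.0763). Casp8 held 106 to 915 reads per library. The adaptor gene Fadd had -0.04 and Cflar, which encodes an inhibitor of caspase-8 activation, -0.20. Fasl, the ligand, did not pass the filter.

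Trp53 itself (chromosome 11, 69580359 to 69591873, plus strand) was at nearly the same level in both groups. It had 5.43, 5.09 and 5.11 in female del/del 1, 2 and 3 and 5.12 in male del/del 5, and 5.10, 5.39, 5.03, 4.96 and 5.16 in female fl/fl 1, 2 and 3 and male fl/fl 5 and 7. The estimate was 0.04 (SE 0.122, 95% interval -0.23 to 0.31, limma adjusted p = 0.997). The groups overlapped, with female del/del 1 and female fl/fl 2 the 2 highest libraries. Counted from each library's median kept gene Trp53 lay between 0.86 and 1.05 in all 9, and female fl/fl 2 exceeded the other fl/fl libraries by 0.04 on that scale against 0.33 as deposited.

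Mdm2 (chromosome 10, 117688888 to 117710758, minus strand) had 6.53, 6.15, 6.32 and 6.17 in female del/del 1, 2 and 3 and male del/del 5. In the fl/fl libraries it had 6.00 in female 1, 6.75 in female 2, 6.08 in female 3, 5.92 in male 5 and 6.14 in male 7. The groups overlapped through female fl/fl 2 alone, the highest of all 9. The estimate was 0.08 (SE 0.174, limma adjusted p = 0.997), and without female fl/fl 2 it was 0.24 (SE 0.106, limma adjusted p = 0.407). In the 6 libraries with the prefix it was -0.04.

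Cdkn1a, Ccng1 and Bax, p53 targets among the 10, were higher in del/del in lines 1, 3 and 5 and lower in line 2. There the fl/fl culture was far above all other libraries. Trp53, Mdm2, Cdkn1b, Cdkn2a and Cdkn2b had the same signs in these lines. The excess of female fl/fl 2 over the other fl/fl libraries was not confined to p53 targets. Its median was 0.39 over 30 other p53 targets, 0.57 over 20 CDK and cyclin genes and 0.65 over 12 neural stem cell markers. Over 19 other cell death genes it was 0.20, and over all kept genes 0.28. Cdkn1a (chromosome 17, 29090979 to 29100722, plus strand), which encodes the p21 protein, had 6.39, 5.90, 5.91 and 5.92 in female del/del 1, 2 and 3 and male del/del 5. It had 5.78, 6.95, 5.77, 5.72 and 5.84 in female fl/fl 1, 2 and 3 and male fl/fl 5 and 7. The del/del values of lines 2, 3 and 5 thus lay close together, while female fl/fl 2 exceeded the mean of the other 4 fl/fl libraries by 1.17, or 2.25-fold. The difference over both sexes was -0.02 (SE 0.247, 95% interval -0.57 to 0.53, limma adjusted p = 0.999). Within lines it was 0.61, -1.05, 0.14 and 0.20 in lines 1, 2, 3 and 5.

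Ccng1 (chromosome 11, 40748552 to 40755311, minus strand), the gene of cyclin G1, moved further. It had 6.62, 6.15, 6.21 and 6.16 in female del/del 1, 2 and 3 and male del/del 5, and 5.98, 7.37, 5.97, 5.96 and 6.04 in female fl/fl 1, 2 and 3 and male fl/fl 5 and 7. Female fl/fl 2 was 2.61-fold above the mean of the other fl/fl libraries (1.38 as deposited, 1.10 counted from the library medians), while those 4 lay between 5.96 and 6.04. The difference over both sexes was -0.03 (SE 0.280, limma adjusted p = 0.999), with 0.64, -1.22, 0.25 and 0.20 in lines 1, 2, 3 and 5. Bax (chromosome 7, 45461695 to 45466898, minus strand), which encodes a pore former of the outer mitochondrial membrane, had 5.67, 5.23, 5.31 and 5.24 in the same del/del and 5.17, 6.02, 5.21, 5.04 and 5.29 in the same fl/fl libraries. Its difference was -0.02 (SE 0.189, limma adjusted p = 0.999), and female fl/fl 2 stood 0.84 above the others. In bulk samples such as these, a higher share of cells that express a gene and more of its RNA per cell cannot be told apart.

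**Figure D2:**
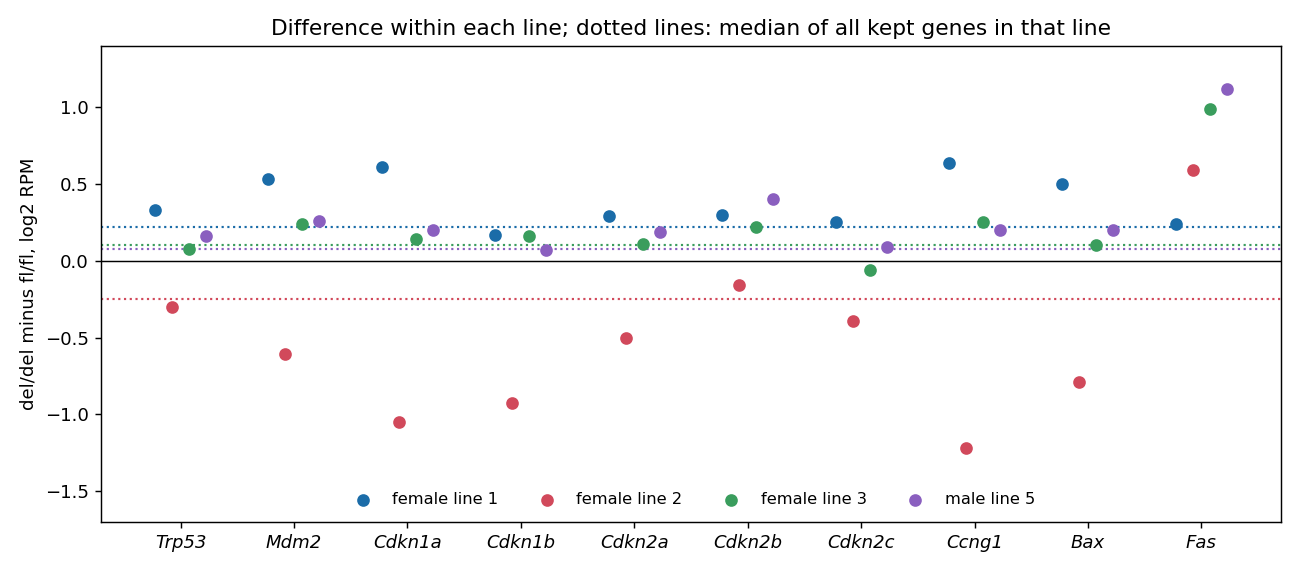
Difference between the del/del and the fl/fl culture of each line (vertical axis, log2 RPM) for the 10 genes, 1 point per line, with dotted lines at the median of all kept genes in that line. Line 2 lies below 0 in all genes but Fas, furthest in Ccng1 (-1.22) and Cdkn1a (-1.05), while lines 1 and 5 lie above 0 in all 10.

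The promoters of these targets are shown because p53 acts through a known DNA element, 2 adjoining copies of the p53 half-site. The 4 genes below stood apart in female fl/fl 2, as did Cdkn1b, whose window held no half-site. A part of p53 in the levels of that library was not tested. Windows from 250 bases before to 50 after an annotated start were taken from RefSeq (GRCm38.p6), 13 for the 10 genes. The p53 half-site consensus is its own reverse complement, so that both strands are read at once. An exact match to it occurred in 5 of the 13 windows (38.5%), against 2745 of all 32851 windows (8.36%). For other p53 targets it was 8 of 29 windows (27.6%). Both sets were picked as p53 targets or pathway members, so a higher share of such elements than over all windows comes with the choice. The 5 belong to Trp53, Mdm2, Cdkn1a (its upstream start), Ccng1 and Bax. At most 2 departures from 2 adjoining half-sites were found in the windows of Cdkn1a and Ccng1, with 1 departure each, and in 0.798% of all windows. Each sequence below holds 100 bases of the gene's strand, with capitals for exact half-sites and, in Cdkn1a and Ccng1, for the whole element of adjoining half-sites. They lie at chr10:117710885-117710984 (minus strand), chr17:29090879-29090978 (plus), chr11:40755422-40755521 (minus) and chr7:45467040-45467139 (minus).
Mdm2: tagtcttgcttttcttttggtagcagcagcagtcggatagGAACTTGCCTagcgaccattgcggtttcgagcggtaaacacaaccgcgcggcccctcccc
Cdkn1a: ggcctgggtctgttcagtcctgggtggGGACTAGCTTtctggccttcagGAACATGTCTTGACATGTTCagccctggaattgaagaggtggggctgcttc
Ccng1: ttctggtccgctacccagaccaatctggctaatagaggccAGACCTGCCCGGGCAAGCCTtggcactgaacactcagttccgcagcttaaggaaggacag
Bax: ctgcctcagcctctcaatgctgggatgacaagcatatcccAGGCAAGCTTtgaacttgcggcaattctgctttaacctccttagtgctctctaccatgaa

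The whole element starts 51 bases before the upstream annotated start in Cdkn1a and 195 bases before the annotated start in Ccng1. The half-sites of Mdm2 and Bax start 186 and 201 bases before their annotated starts. The window of the downstream Cdkn1a start held no exact half-site. The windows of Fas, Cdkn1b, Cdkn2a, Cdkn2b and Cdkn2c held no exact half-site, which says only that these letters are not in these windows. A match is a description of the sequence, and no binding was measured.

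Among the other CDK inhibitors, Cdkn1b (chromosome 6, 134920401 to 134925513, plus strand), the gene of p27, showed the most negative estimate of the 10. It had 5.99, 5.74, 5.80 and 5.76 in female del/del 1, 2 and 3 and male del/del 5, and 5.81, 6.67, 5.64, 5.69 and 5.80 in female fl/fl 1, 2 and 3 and male fl/fl 5 and 7. Apart from female fl/fl 2, which lay 1.90-fold above the other fl/fl libraries, the groups covered nearly the same range. The difference was -0.13 (SE 0.199, limma adjusted p = 0.997), and 0.08 without that library. In lines 1, 3 and 5 it was 0.17, 0.16 and 0.07.

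The INK4 genes lie on chromosome 4 on the minus strand: Cdkn2a (89274473 to 89294653) and, 11635 bp away, Cdkn2b (89306289 to 89311032), with Cdkn2c further along (109660876 to 109667189). The Cdkn2a row spans the transcripts of both p16Ink4a and p19Arf, the inhibitor of Mdm2, and cannot separate them. Cdkn2a had 3.88, 3.66, 3.79 and 3.58 in female del/del 1, 2 and 3 and male del/del 5, and 3.59, 4.16, 3.68, 3.39 and 3.68 in female fl/fl 1, 2 and 3 and male fl/fl 5 and 7. Its difference was -0.01 (SE 0.135, limma adjusted p = 0.999). Cdkn2b had 4.23, 4.14, 4.05 and 4.11 in the same del/del and 3.93, 4.30, 3.84, 3.70 and 4.03 in the same fl/fl libraries, so that female fl/fl 2 alone made the groups overlap. Its difference was 0.16 (SE 0.124, limma adjusted p = 0.951), and 0.25 without female fl/fl 2 (SE 0.0991, limma adjusted p = 0.331). Its difference in male line 5, 0.40, was the largest of the 4 lines, with 0.30, -0.16 and 0.22 in lines 1, 2 and 3. Cdkn2c, at 4.41 to 4.75 in del/del and 4.48 to 4.93 in fl/fl libraries, had -0.04 (SE 0.126, limma adjusted p = 0.997) and was the only 1 of the 10 below 0 in line 3 (-0.06).

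Taking the 10 genes by line, all 10 were above 0 in line 1 (median 0.31), 1 in line 2 (median -0.55), 9 in line 3 (median 0.15) and all 10 in line 5 (median 0.20). The medians of all kept genes in these lines were 0.22, -0.25, 0.10 and 0.08, so the whole table moved the same way as the 10 genes in each line. In 9 of the 10 genes, and in 58.5% of all kept genes, female fl/fl 2 was higher than all other fl/fl libraries, and its median excess over their mean was 0.65 for the 10. Without it all 10 estimates were above 0 (median 0.20) against 73.7% of all kept genes (median 0.08), and 4 of the 10 (Mdm2, Cdkn2b, Ccng1 and Fas) had an unadjusted p under 0.05 against 12%, while none passed after adjustment (1.63% of all kept genes did). Without it del/del lay wholly above fl/fl in Mdm2, Cdkn1a, Cdkn2b, Ccng1 and Fas, 5 of the 10 against 11% of all kept genes. The gaps were narrow, from Mdm2 (6.15 against 6.14) to Ccng1 (6.15 against 6.04). Mdm2, Cdkn1a and Ccng1 also moved together (r of 0.924 to 0.989 without that library), so they are not separate observations. Counted from the library medians del/del lay wholly above fl/fl in Cdkn1a, Cdkn2b and Ccng1, against 7.93% of all kept genes. The sizes were small: 1.22-fold for Ccng1 (0.28, SE 0.115, limma adjusted p = 0.352), 1.19-fold for Cdkn2b and 1.18-fold for Mdm2 and Cdkn1a.

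**Figure D3:**
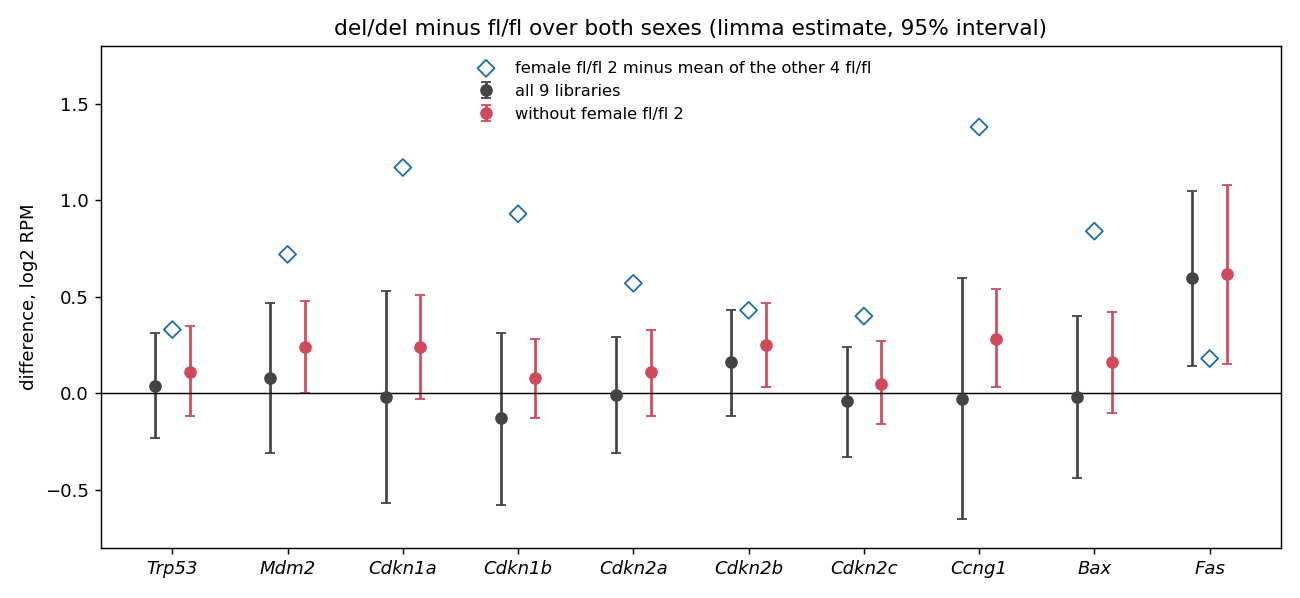
Estimated difference between del/del and fl/fl over both sexes with its 95% interval (vertical axis, log2 RPM) for the 10 genes, with all 9 libraries (dark) and without female fl/fl 2 (red), and the excess of female fl/fl 2 over the mean of the other 4 fl/fl libraries (open diamonds). All 10 estimates without that library lie above 0, and its excess runs from 0.18 in Fas to 1.38 in Ccng1.

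A comparison within lines 1, 3 and 5 alone, chosen after the values had been seen, called 5 of the 10 genes as rises, against 11.9% of all kept genes (12.8% in both directions) and a median of 0.14 for all of them. The 5 were Fas (0.78, limma adjusted p = 0.00206), Mdm2 (0.34, adjusted p = 0.0244), Ccng1 (0.36, adjusted p = 0.0277), Cdkn2b (0.31, adjusted p = 0.0354) and Cdkn1a (0.32, adjusted p = 0.0488). With each library's median set equal in addition, Fas alone passed (0.66, limma adjusted p = 0.0496), against 5.09% of all kept genes. These fits had 2 residual degrees of freedom. Split by sex within these lines, with 1 residual degree of freedom, 2 of the 10 passed in females (4.94% of all kept genes) and 1 in males (4.5%). The calls of Mdm2, Ccng1, Cdkn2b and Cdkn1a therefore rested on the choice of lines and on the scale. That of Fas rested on the choice of lines. With line 2 included Fas missed the threshold (limma adjusted p = 0.0567, and 0.0773 with the medians set equal).

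Separately by sex, none of the 10 passed. In females 0.0142% of all kept genes passed, and 1 of the 10 had an unadjusted p under 0.05 against 6.52%. In males, with a lone del/del library, 0% passed, and 0 of the 10 had an unadjusted p under 0.05 against 2.63%. The difference of Fas was 0.61 in females (SE 0.263, limma adjusted p = 0.745) and 0.58 in males (SE 0.394). The female minus the male effect was 0.03 (SE 0.474). The male value was 0.04 without male fl/fl 5 and 1.12 without male fl/fl 7. In females 4 of the 10 estimates were above 0 with all libraries and all 10 without female fl/fl 2 (48.1% and 81% of all kept genes). In males all 10 were above 0 with all libraries and 5 without male fl/fl 5 (51% and 32.9% of all kept genes). The female minus the male effect was above 0 in 1 of the 10, Fas, with all libraries and in all 10 without female fl/fl 2 (49% and 77.6% of all kept genes). The directions in females and of this difference thus changed with female fl/fl 2. No difference between the sexes passed for any of the 10 (0% of all kept genes passed, limma), with 0 of the 10 and 0.0427% of all kept genes at an unadjusted p under 0.05. Voom also called none of the 10 in females (0.0214% of all kept genes), in males or for the difference of the sexes (0% in both).

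Set per kb of exon, which allows levels of different genes to be compared, Bax was the highest of the 10 in fl/fl libraries, with a mean of 26.6 RPM per kb (20.9 to 41.1 over the 5 libraries). Ccng1 followed with 23.9 (17.7 to 47.2), Cdkn1a with 19.3 (14.9 to 34.8) and Fas with 18.6 (11.5 to 24.1). Mdm2 had 14.6 (11.9 to 21.2), Cdkn1b 13.8, Cdkn2a and Cdkn2b 11.3 each, Cdkn2c 9.16 and Trp53 8.71 (7.71 to 10.4). Over the 5 libraries the ranges of neighbours in this order overlapped throughout. Without female fl/fl 2 the order changed: Bax had 23, Fas 18.3, Ccng1 18.1, Cdkn1a 15.4 and Mdm2 12.9, so Fas stood above Ccng1 and Cdkn1a. Whether the authors counted reads in introns is not given in the sources used here, and such reads would raise genes with long introns. Each gene held between 430 reads (Cdkn2a in female fl/fl 2) and 8115 reads (Mdm2 in male fl/fl 7) per library, and no row of the 10 overlapped another row of the table.

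Cdkn1a and Ccng1 followed each other most closely among the 10, with r of 0.996 over the 9 libraries, 0.989 without female fl/fl 2 and 0.995 for values counted from the library medians. Bax followed Cdkn1a (0.985, 0.956 and 0.974) and Mdm2 (0.972, 0.954 and 0.927). Fas followed them least, with r of 0.128 to Cdkn1a (0.464 and -0.2 on the same terms), 0.13 to Ccng1 (0.522 and -0.175) and 0.2 to Bax (0.528 and -0.142), so these values depend on that library and on the scale. The highest r of Fas was to Cdkn2b (0.684, 0.88 and 0.758). These correlations are descriptions over libraries that share scaling, lines and genotype.

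Beyond the 10 genes, 1 of 30 other p53 targets passed over both sexes, against 1.55% of all kept genes. Perp, which encodes a desmosomal membrane protein linked to p53-dependent death, rose 2.27-fold (1.18, SE 0.158, limma adjusted p = 0.0084). Its level was 2.57, 2.71 and 2.89 in female del/del 1, 2 and 3 and 2.60 in male del/del 5, all above the fl/fl values of 1.37, 1.54, 1.62, 1.16 and 1.82 in female 1, 2 and 3 and male 5 and 7. Perp held 70 to 735 reads per library, its estimate was also 1.18 without female fl/fl 2, and the call was lost without male del/del 5 (1.21, limma adjusted p = 0.0914). The next by p were Tnfrsf10b, a death receptor of the TRAIL pathway (0.31, limma adjusted p = 0.263), and the translesion polymerase gene Polk (0.20, adjusted p = 0.598). The 30 had a median of 0.04 with 18 above 0, and 0.16 with 26 above 0 without female fl/fl 2. Of all kept genes 48.9% and 73.7% were above 0 on the same terms.

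Of 22 regulators and relatives of p53, 20 were kept and none passed (median -0.02, and 0 of 20 at an unadjusted p under 0.05). The checkpoint kinase gene Chek1 had -0.26 (limma adjusted p = 0.772), the acetyltransferase gene Crebbp 0.19 and the damage kinase gene Atm 0.12. Without female fl/fl 2 these were -0.11, 0.11 and 0.15, and the median of the list was 0.06. The p53 relatives Trp63 and Trp73 did not pass the filter. None of 20 CDKs, cyclins and other CDK inhibitors passed (median -0.13, 5 above 0, 1 at an unadjusted p under 0.05). Skp2, which marks p27 for destruction, had -0.30 (limma adjusted p = 0.455), the INK4 gene Cdkn2d -0.17 and the retinoblastoma relative Rbl1 -0.16. Without female fl/fl 2 these 3 had -0.22, -0.05 and -0.06, and the median of the 20 was 0.05, with 13 above 0. Of all kept genes 48.9% were above 0 with all libraries and 73.7% without that library. Of 22 other cell death genes 19 were kept and none passed with all 9 libraries (median 0.01, 1 at an unadjusted p under 0.05). After Casp8, the smallest p belonged to Casp9, the caspase of the mitochondrial route (-0.28, limma adjusted p = 0.539), and Bad, a pro-death Bcl2 relative (0.18, adjusted p = 0.642).

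Genes of the G1/S transition and of proliferation, which p21 and the INK4 proteins restrain, stood at a median of -0.13 with 2 of 26 above 0. For all kept genes the median was 0.00, with 48.9% above 0. None of the 26 passed and 1 had an unadjusted p under 0.05, against 9.84% of all kept genes. The repressor gene E2f7 had -0.25 (limma adjusted p = 0.371), the replication licensing gene Cdc6 -0.17 and the thymidylate synthase gene Tyms -0.28. In 20 of the 26, and in 58.5% of all kept genes, female fl/fl 2 was the highest fl/fl library. Without it the median of the 26 was 0.00 with 12 above 0, against 0.08 and 73.7% for all kept genes. E2f7 then had -0.23, Cdc6 -0.16 and Tyms -0.15. Voom also called none of the regulators, of the CDK and cyclin genes, of the other cell death genes or of the G1/S genes.

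**Figure D4:**
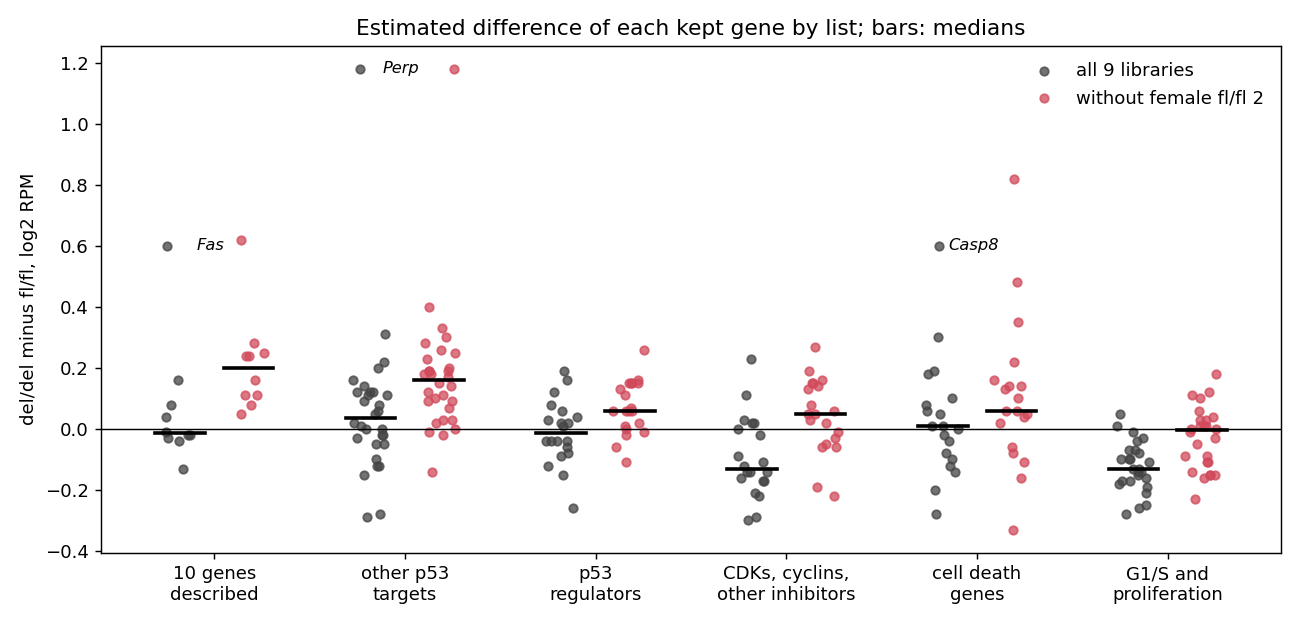
Estimated difference between del/del and fl/fl over both sexes (vertical axis, log2 RPM) of each kept gene in the 6 lists, with all 9 libraries (dark) and without female fl/fl 2 (red), with bars at the medians. Perp at 1.18 stands above all others, and every median is higher without female fl/fl 2.

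Markers of other cell types were examined beside these results. Of 8 astrocyte markers 3 rose in del/del (Gfap 2.07, Aqp4 1.66 and Slc1a2 0.66, limma adjusted p from 0.0194 to 0.0318), and the summed level of the list was 8.18 to 8.59 in del/del libraries, 7.83 to 8.04 in 4 fl/fl libraries and 8.75 in female fl/fl 2. The 7 kept neuron markers had a median of -0.24, with 2 above 0, against 48.9% of all kept genes. Gad1 had 0.80 (limma adjusted p = 0.214, and 0.0348 with the line as a block). Rbfox3 had -0.50, Tubb3 -0.36 and Syp -0.30, and none of these passed. Both kept endothelial markers, of 5 in the list, had estimates above 0 that did not pass: Kdr had 0.61 (limma adjusted p = 0.497) and Flt1 1.84 (limma adjusted p = 0.106, and 0.00995 with the line as a block). The part of these markers in the values of Fas, Perp and Casp8 was not tested. The summed level was highest of all fl/fl libraries in female fl/fl 2 for the neural stem cell (10.16 against 9.14 to 9.32 in the other 4) and neuron lists (8.61 against 7.74 to 7.81), as for the astrocyte list. Gene by gene this was uneven: female fl/fl 2 was the highest fl/fl library in 7 of 12 stem cell, 3 of 8 astrocyte and 1 of 7 kept neuron markers, with a median excess of 0.65, 0.11 and -0.06. The part of cell composition in its p53 target levels was not tested. Of 8 microglia and leukocyte markers 3 were kept. These were Cx3cr1, at 6.38 to 6.85 over the 9 libraries, Csf1r (2.36 to 2.68) and P2ry12 (2.08 to 2.88). Ptprc, Aif1, Itgam, Tmem119 and Cd3e were not kept. Of 6 fibroblast and mesenchymal markers 0 were kept. Female del/del 2 still differed in Col1a1 (2.53, against at most 0.06 in the other libraries) and Col1a2 (2.67, against at most 0.58). The part of this in the differences of line 2 was not tested.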

How the data were processed

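The authors deposited 1 table of log2 RPM per gene and library, per the file headers and the values. TopHat2 2.0.12, edgeR 3.8.2, bcl2fastq and the build mm10 are listed in the submitters' processing notes. The read counter, annotation, strand setting and treatment of introns are not given there or in other sources used here. With 1 scaling constant per library nearly all values came out as whole reads (within 0.05 of a read; 0 had been entered as 0.9), and the reads so recovered were used for depth and for voom. Libraries held 12.9 M to 44.9 M reads in genes, and the 10 genes 430 to 8115 reads each.

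Samples were grouped by their titles; the design text calls all lines female and the controls del/fl, and the titles were followed. The 14044 rows with a log2 level of 0 or above in 3 or more libraries were tested with limma 3.58.1 in R 4.3.3 (intensity trend, two-sided, Benjamini-Hochberg over all of them, threshold 0.05). Over both sexes genotype and sex were fitted to 9 libraries (6 residual degrees of freedom). The effects by sex came from 4 group means (5 residual degrees of freedom), where the lone male del/del library is assumed to vary like the others. The fit was tested on simulated data for the comparison over both sexes: of genes changed by 1 on the log2 scale 98% to 100% were recovered among 14044, and 13 unchanged genes were called. Only changes of 1 and 2 were simulated. Recovery of changes as small as the estimates of the 10 genes, at most 0.60, was not tested. In the data larger estimates could also miss the threshold, as did Flt1 with 1.84 (SE 0.466).

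The growth protocol states that each line was split, so line numbers pair the cultures. Deviations of female libraries from their group means correlated across genes at 0.868, 0.582 and 0.758 for lines 1, 2 and 3. Across lines 2 and 3 they correlated at 0.728 for del/del 2 with fl/fl 3 and at 0.494 for del/del 3 with fl/fl 2. Line 1 is the only female line without the RNA- prefix, so its pairing and that split cannot be told apart here. Whether the lines came from separate embryos is not stated, so p-values measure the spread between these cultures.

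The members and lists were chosen with earlier results of these data known. The genes named are the 10, Smchd1, from each list those that passed or else its 3 with the smallest p, and the 5 genes most like Fas, the member with the smallest p. Fadd, Cflar, the genes that missed the filter, and the cell type markers were named after their values were seen. Exon lengths came from GENCODE vM21 and promoters from RefSeq (GRCm38.p6). Alternatives were other scalings, no filter, a pseudocount of 1, voom, the line as a block, the 6 prefixed libraries and leaving out each library.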

Additional observations from a re-analysis of the deposited data

Results flagged for a closer look

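In 11 of the 50 sets of values examined (22%), the highest library of a genotype lay apart from the others by more than the 95% limit of Dixon's test. Chance gives about 1 in 20, and over all kept genes 24.1% of fl/fl and 19% of del/del sets did so. Among the 10 genes alone it was 5 of 10 fl/fl sets (50%) and 3 of 10 del/del sets (30%). All 11 belonged to female fl/fl 2 or female del/del 1.

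Among fl/fl libraries female fl/fl 2 stood apart in Ccng1 (7.37 against 5.96 to 6.04), Cdkn1a (6.95 against 5.72 to 5.84), Cdkn1b (6.67 against 5.64 to 5.81), Mdm2 (6.75 against 5.92 to 6.14) and Bax (6.02 against 5.04 to 5.29), all log2 RPM. It also did so in Skp2 (4.76 against 4.34 to 4.45) and Tyms (4.8 against 4.08 to 4.24). Among del/del libraries female del/del 1 stood apart in Cdkn1a (6.39 against 5.90 to 5.92), Ccng1 (6.62 against 6.15 to 6.21), Trp53 (5.43 against 5.09 to 5.12) and Rbl1 (5.41 against 5.00 to 5.05).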

How the results depend on the processing

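Of the 10 genes Fas and Cdkn2b kept their sign over both sexes in every alternative, and Fas ran from 0.46 to 0.90. The 8 others had estimates within 0.13 of 0 and changed sign in some. Leaving out each library in turn gave -0.03 to 0.11 for Trp53, 0.00 to 0.24 for Mdm2, -0.14 to 0.24 for Cdkn1a, -0.25 to 0.08 for Cdkn1b, -0.08 to 0.11 for Cdkn2a, -0.10 to 0.05 for Cdkn2c, -0.17 to 0.28 for Ccng1 and -0.11 to 0.16 for Bax. It gave 0 to 1 called among other p53 targets and among cell death genes, and -0.51 to 0.56 for the female minus male effect of Fas. With the 6 prefixed libraries Trp53 had -0.02, Mdm2 -0.04 and that effect of Fas -0.33. Quantile normalization gave 0.01 for Bax, 0.05 for Ccng1 and 0.04 for Cdkn1a. Voom gave 0.01 for Bax and Cdkn2a and -0.02 for the sex effect of Fas. With the line as a block (pairing of cultures) Bax had 0.00, Cdkn2a 0.02 and the sex effect of Fas -0.51, and 1 cell death gene (Casp8) passed. The block changed no other call among the 10 genes and the genes of the pathway lists, while among cell type markers Gad1 and Flt1 passed with it.

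The next 3 settings were chosen after seeing the data. Median centring without female fl/fl 2 gave 0.08 for Bax, 0.21 for Ccng1, 0.16 for Cdkn1a, 0.00 for Cdkn1b, 0.03 for Cdkn2a and -0.03 for the sex effect of Fas, with 1 G1/S gene called. The block without line 2 gave 0.26, 0.36, 0.32, 0.13 and 0.20 for the same 5 genes, 0.09 for Cdkn2c, 0.03 for Cdkn2d and -0.50 for the sex effect of Fas. Over both sexes it called 5 of the 10 and 9 of 30 other p53 targets, against 12.8% of all kept genes. The count was 2 of 19 for kept cell death genes and 1 of 20 for CDK or cyclin genes. In females, on 1 residual degree of freedom, it called 2 of the 10 against 4.94%. With median centring added the block without line 2 gave 0.14, 0.24, 0.19, 0.01 and 0.07. It called 1 of the 10, 2 of 30 other p53 targets and 1 of 26 G1/S genes, against 5.09% of all kept genes. The causes were not tested.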
